A study of Mus musculus with 33 samples.

Results

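Cortical microglia were compared between postnatal day 10 (P10) and P42, using the 8 of the 33 libraries of the series that were made from the cerebral cortex (Cx) at these ages, 4 at P10 and 4 at P42. The members were chosen by their labels for region and age, and each group held 2 libraries from female and 2 from male mice. The animals were untreated, were kept under pathogen-free conditions and were perfused before sorting. Wildtype C57BL/6J and Cx3cr1 GFP/WT mice were bred for the study, and the labels name no genotype for the animals that were sequenced. They also do not say whether a library came from 1 mouse or from a pool, so the p-values below measure the spread between these libraries. The cells were sorted by flow cytometry as CD45+, CD11b+ and Gr1-, a gate that also admits macrophages of the brain's borders and excludes cells with high Gr1 such as neutrophils. The corpus callosum (CC) and cerebellum (Cb), each with 4 libraries per age, and 3 cortical libraries from P7 are used below only to place the cortical values.

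Microglia are the resident macrophages of the brain parenchyma. They arise from the yolk sac, colonise the brain before birth, multiply there during the early postnatal weeks and then persist as a slowly renewing population with a ramified form. The signals TGF-beta, CSF1 and IL-34 maintain them and their gene programme, and macrophage transcription factors such as PU.1 set that programme. The interval from P10 to P42 runs from the phase of expansion and synapse remodelling to the young adult brain.

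The P10 libraries held 37086435 to 44973514 reads assigned to genes and the P42 libraries 29286256 to 38574198. Levels are given as CPM, the reads of a gene scaled to a common library size with edgeR's TMM factors, and 1 read was worth 0.0222 to 0.0341 CPM. A call required an adjusted p no higher than 0.01 together with a log2 change of at least 1 in either direction, and differences are written as P42 minus P10. A gene with 3 reads or fewer in every library of a group was treated as at the limit of detection there, and its fold is given as a lower bound against 3 reads per library. The sex labels matched the higher of Xist and the summed Y-linked genes in 8 of 8 libraries. Male P10 replicate 3 held 22.9 CPM of Xist, between the females (194 to 302) and the other males (0.919 at most), and female P10 replicate 1 held 12.2 CPM of summed red cell genes against 0.937 at most in the other 7 libraries. Without these libraries 718 and 720 genes were called, against 807 with all 8.

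Of 20917 genes tested, 228 were called higher at P42 (1.09%) and 579 lower (2.77%), and the median log2 fold change of all genes was -0.05. These shares are the background for the list counts below. The libraries of the 2 ages did not overlap for 226 of the 228 and 577 of the 579. The call uses the same libraries and largely fixes this, so it is no separate support. Of the genes called lower, 116 were at the limit of detection in all 4 P42 libraries and 60 had no read there, whereas 2 of the genes called higher were at the limit in all 4 P10 libraries. At an unadjusted p under 0.05 there were 5196 of the 20917 genes. In the female libraries alone 472 genes were called and in the male libraries alone 430. The test of a difference between the sexes in the change called 0 genes with edgeR and 0 with limma-voom, and 601 genes had an unadjusted p under 0.05 with edgeR. Counts were also simulated with the means and depths of these libraries. There edgeR called 17 of 100 genes changed 2-fold, 65 of 100 changed 4-fold and 0 unchanged genes. limma-voom called 10 unchanged genes and DESeq2 20. A true 2-fold change lies on the fold limit, so the 17 reflect that limit as well as the test. A missing call at a small fold therefore carries little information.

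The label was compared with marker genes. All 25 homeostatic microglia genes listed were detected, with a summed level of 135600 to 143000 CPM at P10 and 161600 to 177600 CPM at P42, of which Cst3 alone held 17930 and 45840 CPM on average. Among border macrophage markers Mrc1 stood apart and is described below. The others were low: Pf4, a platelet chemokine that these macrophages express, held 5.60 CPM on average at P10 and 1.11 at P42, Cbr2 6.03 and 0.805, Cd163 0.516 and 0, and Lyve1 0.525 and 0.0526. Monocyte markers summed to 18.6 to 24.4 CPM at P10 and 15.4 to 27.5 CPM at P42. The 4 neutrophil markers tested, of 10 listed, summed to 0.969 CPM at most. Oligodendrocyte markers summed to 145 to 159 CPM at P10 and 172 to 216 CPM at P42, without overlap. The 4 lymphocyte markers tested summed to 132 to 138 CPM at P10 and 53.5 to 93.9 CPM at P42, also without overlap. None was called by edgeR, limma-voom or DESeq2, and 1 had an adjusted p of 0.01 or less in edgeR with a smaller fold.

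The largest falls between the ages were in genes of cell division. Cells that divide copy their DNA in S phase, using origin licensing factors, the replication fork and enzymes that make deoxynucleotides, and then separate the chromosomes in mitosis with condensins, kinetochores and spindle motors. Of 102 such genes in 8 lists, 90 were called lower at P42, 0 were called higher, and the fitted log2 fold change of all 102 was below 0 with a median of -5.16. The 51 genes of mitosis held 49 of these calls with a median of -7.26, or -6.87 when genes at the limit of detection were set to their bounds, and the 33 genes of DNA synthesis held 29 with a median of -2.73. Leaving out 1 library at a time left 85 to 87 calls over the 102 genes. In sorted bulk samples fewer cells of a type and less RNA per cell cannot be told apart.

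The summed level of the 102 genes was 4782 to 5641 CPM in the P10 libraries and 664 to 711 CPM in the P42 libraries, and it had been 8450 to 9274 CPM at P7. For mitosis the sums were 2403 to 2897 CPM at P10 and 115 to 128 CPM at P42. DNA synthesis genes kept more of their level, with 1425 to 1691 CPM at P10 and 265 to 318 CPM at P42.

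Top2a encodes the topoisomerase that untangles sister chromatids (chr11:98992943-99024189, minus strand, GRCm38). It was counted at 233, 280.1, 264 and 206 CPM in the 4 P10 libraries and at 0.0701, 0.396, 0 and 0 CPM in the 4 P42 libraries, a log2 fold change of -10.87 ± 0.77 (SE, adjusted p = 1.06e-11). The ages did not overlap, and 2 of the P42 libraries held no read. Mki67, the proliferation marker Ki-67 (chr7:135689784-135716361, minus strand), lay at 81.8, 108, 109 and 123 CPM at P10. At P42 it lay at 0.0351, 0.0528, 0.0292 and 0 CPM, at most 3 reads in any library and at least 1142-fold lower.

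**Figure D1:**
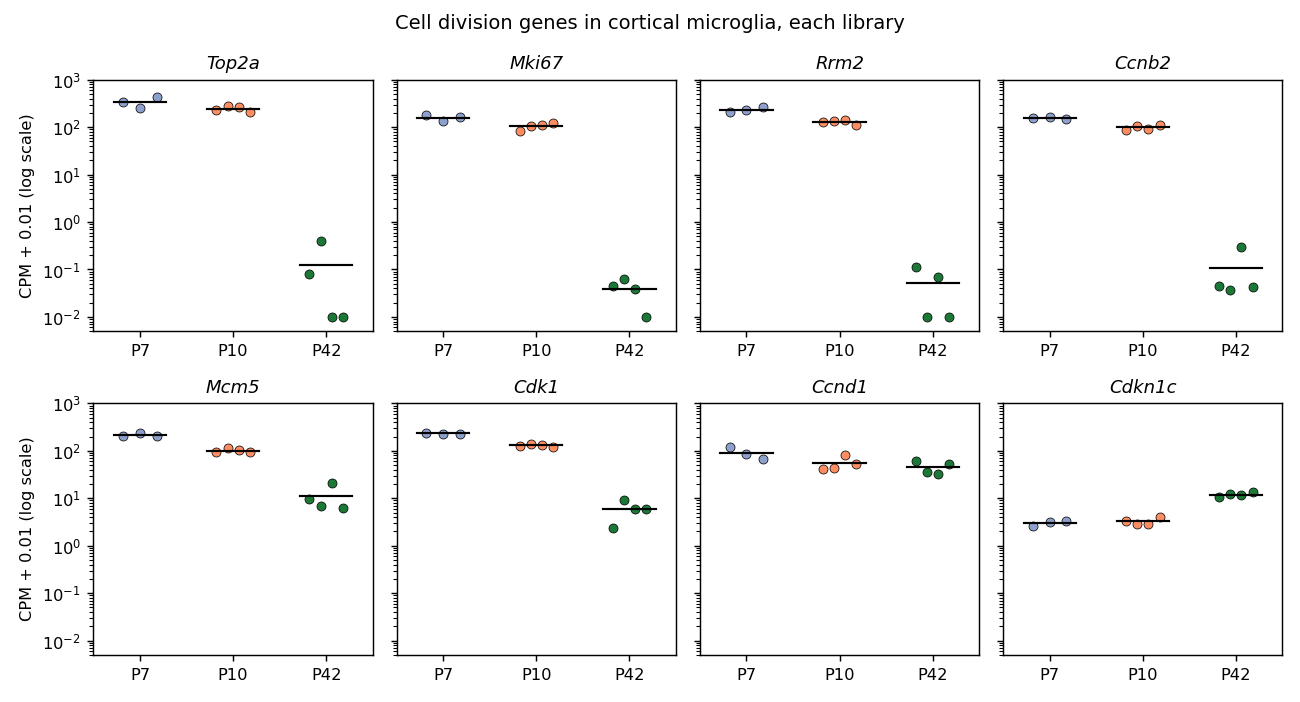
CPM plus 0.01 on a log scale (y axis) of 8 cell division genes in each cortical library at P7 (3 libraries), P10 (4) and P42 (4); points are libraries and bars are means. Top2a, Mki67, Rrm2 and Ccnb2 lay above 80 CPM in every P10 library and below 0.4 CPM in every P42 library, Mcm5 and Cdk1 kept some reads in every P42 library, Ccnd1 overlapped between the ages and Cdkn1c was higher at P42.

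Rrm2, the subunit of ribonucleotide reductase whose level limits deoxynucleotide synthesis, lay at 130.2, 135, 141 and 113 CPM at P10 and at 0.105, 0, 0.0583 and 0 CPM at P42, at least 1408-fold lower. Ccnb2, a B-type cyclin of mitosis, went from 87.5, 108, 93.4 and 111 CPM to 0.0351, 0.0264, 0.292 and 0.0323 CPM (log2 -9.93 ± 0.60, adjusted p = 5.06e-13). The survivin gene Birc5 and the mitotic kinase gene Plk1 were at or below 3 reads in every P42 library after means of 77.8 ± 9.08 and 54.8 ± 5.80 CPM (SD, n = 4) at P10. E2f8, a repressor of the E2F family that is itself made in S phase, held 21.5, 14.5, 27.3 and 15.0 CPM at P10 and no read in any P42 library. These genes did not overlap between the ages and ended at or near the limit of detection.

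Other division genes fell without reaching that limit. Cdk1, the kinase that drives entry into mitosis, went from 128, 139.7, 134 and 118 CPM to 2.35, 9.27, 5.86 and 5.91 CPM (log2 -4.47 ± 0.52, adjusted p = 1.79e-07). Mcm5, a subunit of the replicative helicase, went from 95.4, 112, 102 and 93.3 CPM to 9.57, 6.97, 21.1 and 6.2 CPM, a 9.18-fold fall. Its partners ranged from Mcm2, which was 14.9-fold lower, to Mcm3, which was 2.60-fold lower at 67.9 CPM. Of the 12 genes without a call, 2 passed the limit on p and not that on fold: Pcna, the sliding clamp of the replication fork (log2 -0.91, adjusted p = 4.90e-06), and Cdk4, a G1 kinase gene (log2 -0.73, adjusted p = 5.04e-06). The libraries of the ages did not overlap for either. The D-type cyclin genes Ccnd1 (54.7 CPM at P10 and 45.2 at P42) and Ccnd3 (31.0 and 28.5 CPM), which act in early G1, overlapped between the ages. The other D-type cyclin gene, Ccnd2, had a log2 fold change of -3.02 and was not called.

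The 15 largest falls outside them, ranked by the ratio of mean CPM with 0.5 CPM added among called genes with at least 10 CPM in the higher group, were Pbk, Hmmr, Cdca3, Shcbp1, Ccnf, Fam64a, 2810417H13Rik, Ckap2, Cdca2, Dtl, Nek2, Wee1, Aspm, Dlgap5 and Melk. Pbk, a mitotic kinase gene, averaged 119 CPM at P10 and 0.0367 CPM at P42, and Hmmr, a spindle protein gene, 92.5 and 0.00808 CPM. Nek2 and Wee1 encode kinases of the entry into mitosis and Aspm a protein of the spindle poles.

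The inhibitors of the cycle did not move together: 1 of 12 was called higher and 3 lower, with a median of -0.63. Cdkn1c, which encodes p57, rose from 3.37, 2.91, 2.82 and 4.04 CPM to 10.6, 12.1, 11.7 and 13.7 CPM (log2 1.87 ± 0.28, adjusted p = 1.20e-05). A gene on the other strand overlaps 30.7% of its exon bases. Reads that fall on both genes were discarded by the authors, so its level is uncertain. Cdkn1a, the p21 gene, fell from 95, 99.4, 113 and 101 CPM to 12.0, 12.9, 7.03 and 17.7 CPM (log2 -3.04 ± 0.32, adjusted p = 3.43e-08). Cdkn2c, the p18 gene, fell from 86.2 ± 10.0 to 14.1 ± 1.82 CPM (SD, n = 4), and Rbl1, the p107 pocket protein gene, from 74.3 to 29.4 CPM. Among the called inhibitors only the p57 gene stood higher at P42. A further 3 had an adjusted p of 0.01 or less with a smaller fold, and 4 of the 12 had a fold change above 0.

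Promoters of these genes were searched because many move together, and stretches are printed for the called genes with the largest differences in mean CPM among those with a single promoter in the table and a match wholly before the start. The letters TTTGAA form the cell cycle homology region (CHR), which binds the DREAM complex and B-MYB and FOXM1 at genes of mitosis. E2F sites were searched as TTTCCCGC, TTTGGCGC and TTTCGCGC, and the interferon-stimulated response element (ISRE), which binds factors of the interferon response, by its consensus with 2 free positions between a pair of GAAA repeats, all on both strands of 300 bases from 250 before to 50 after the start. Sequences are from RefSeq on GRCm38.p6, 80 bases each, on the strand of the gene, and capitals mark the matches on either strand.
Top2a (CHR), chr11:99024190-99024269, minus strand: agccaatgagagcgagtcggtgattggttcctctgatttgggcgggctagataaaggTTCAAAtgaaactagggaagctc
Mki67 (CHR), chr7:135716435-135716514, minus strand: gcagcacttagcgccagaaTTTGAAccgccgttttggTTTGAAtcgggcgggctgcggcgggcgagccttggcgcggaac
Mcm6 (E2F), chr1:128359709-128359788, minus strand: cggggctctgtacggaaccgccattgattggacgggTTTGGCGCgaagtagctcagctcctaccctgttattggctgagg
Mcm5 (E2F), chr8:75109324-75109403, plus strand: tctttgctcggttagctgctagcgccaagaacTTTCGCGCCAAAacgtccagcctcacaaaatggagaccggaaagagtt
Ifit3 (ISRE), chr19:34583372-34583451, plus strand: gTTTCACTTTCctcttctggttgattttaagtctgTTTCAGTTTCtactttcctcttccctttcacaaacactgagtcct
Isg15 (ISRE), chr4:156200840-156200919, minus strand: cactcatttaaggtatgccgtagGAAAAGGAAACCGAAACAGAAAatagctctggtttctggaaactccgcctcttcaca

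The CHR letters stood in 35 of 51 promoters of the mitosis genes (68.6%), in 5 of 35 of the DNA synthesis genes (14.3%) and in 17.9% of all 32851 promoters in the table. The E2F letters stood in 13 of 35 promoters of the DNA synthesis genes (37.1%), in 6 of 51 of the mitosis genes (11.8%) and in 1.84% of all. The ISRE letters stood in 22 of 35 promoters of the interferon-induced genes described below (62.9%), in 3.44% of all promoters and in 4 of 51 of the mitosis genes. CCAAT boxes, which are common near start sites, were less selective: 34 of 51 for mitosis (66.7%), 16 of 19 for cholesterol synthesis (84.2%) and 37.4% of all. In the 15417 promoters of the genes tested here the shares were 12.3% for CHR, 3.06% for E2F, 3.15% for ISRE and 37.4% for CCAAT. Of the genes listed, 45 of 51 for mitosis, 28 of 33 for DNA synthesis and 28 of 37 for the interferon list were in the table, and a match is a description of letters, not of binding.

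**Figure D2:**
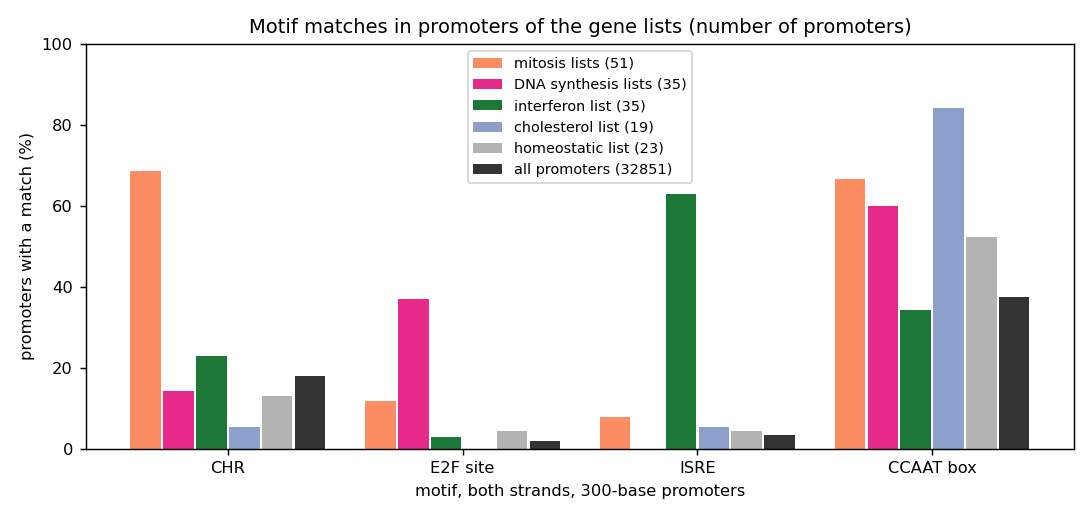
Share of promoters (y axis, %) that hold each of 4 motifs (x axis) in 5 gene sets and in all 32851 promoters; the number of promoters stands in the legend. CHR letters were most frequent in the mitosis set (68.6%), E2F letters in the DNA synthesis set (37.1%) and ISRE letters in the interferon set (62.9%).

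Of 25 homeostatic genes, by which microglia are recognised, 1 was called higher and 1 lower, against 1.09% and 2.77% of all genes, and the median log2 fold change was 0.19. A further 12 had an adjusted p of 0.01 or less with a smaller fold. P2ry12, the ADP receptor that guides microglial processes (chr3:59216272-59262871, minus strand), lay at 14820, 15650, 15750 and 14870 CPM at P10 and at 12630, 11000, 10950 and 13350 CPM at P42. Its P42 libraries lay below all P10 libraries, by 0.35 ± 0.09 on the log2 scale (adjusted p = 0.00585), which is inside the fold limit. Tmem119 lay at 4885, 4939, 5049 and 5289 CPM and then at 6536, 6569, 6078 and 5924 CPM (log2 0.32 ± 0.10, adjusted p = 0.0271). At P7 the means of P2ry12 and Tmem119 were 7447 and 2202 CPM, below every P10 library.

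Sall1, a transcription factor gene that is particular to microglia among brain macrophages, lay at 368, 367, 427 and 378 CPM at P10 and at 405, 401, 457 and 452 CPM at P42, with overlap between the ages. Csf1r overlapped between the ages too, and Cx3cr1 went from 2598 to 2970 CPM (log2 0.19 ± 0.06, adjusted p = 0.0181). Selplg, which encodes a selectin ligand, lay at 3809, 4015, 4316 and 4404 CPM and then at 8679, 8102, 7521 and 7769 CPM, and its log2 fold change of 0.95 ± 0.08 was just inside the limit (adjusted p = 9.64e-10). None of 18 genes of the TGF-beta pathway and none of 10 of the CSF1 receptor pathway were called by edgeR. limma-voom and DESeq2 called 0 in each as well. At an unadjusted p under 0.05 there were 8 of the 18 and 6 of the 10, against 5196 of all 20917 genes. The receptor gene Tgfbr1 was among them, at 1734 and 2272 CPM. An adjusted p of 0.01 or less was reached by 1 of the 18 and 2 of the 10.

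The 2 calls were in opposite directions. Cst3, which encodes the secreted protease inhibitor cystatin C (chr2:148871722-148875692, minus strand), rose from 17870, 17360, 18550 and 17940 CPM to 46890, 47010, 42880 and 46560 CPM (log2 1.35 ± 0.09, adjusted p = 1.79e-12). Gas6, a ligand of the TAM receptors that bridges them to dying cells, fell from 690.0, 695, 586 and 676 CPM to 179.9, 141, 134 and 144 CPM (log2 -2.14 ± 0.13, adjusted p = 6.13e-13). Among the TAM receptor genes, Axl fell and Mertk was at 413 CPM and 668 CPM (log2 0.69 ± 0.11, adjusted p = 4.46e-05), inside the fold limit.

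**Figure D3:**
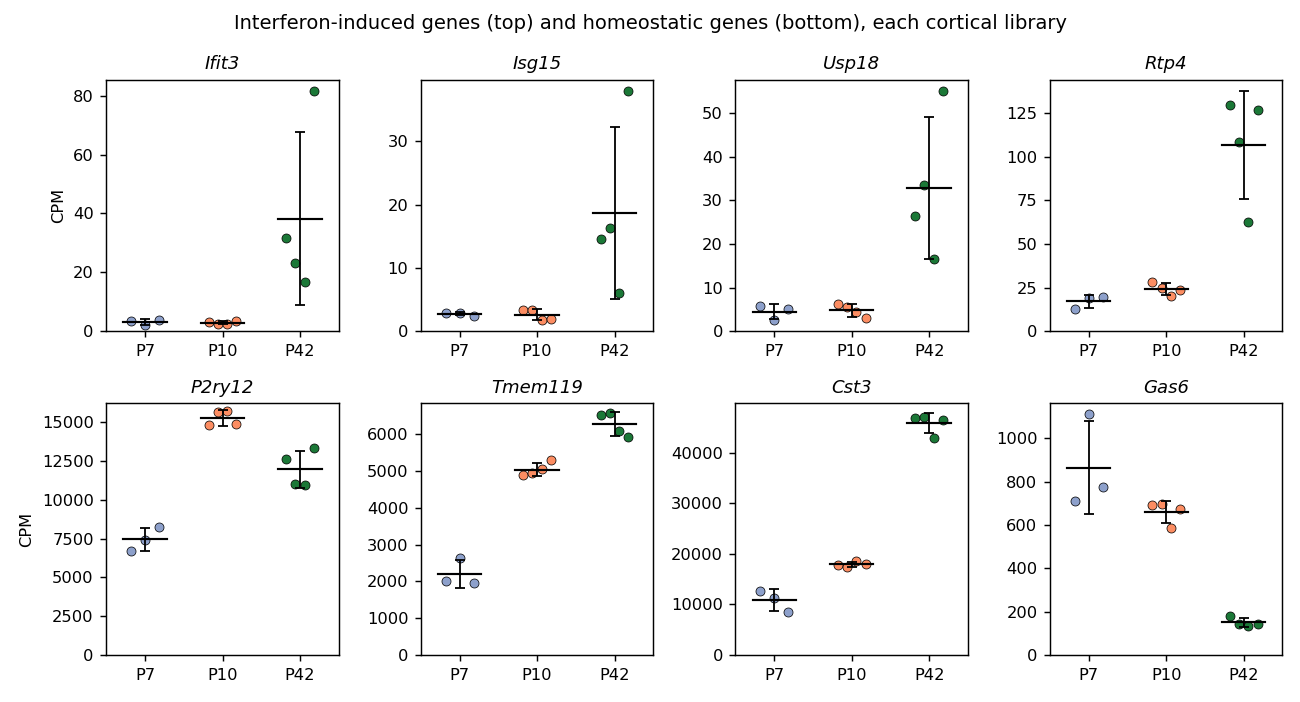
CPM (y axis) of 4 interferon-induced genes (top) and 4 homeostatic genes (bottom) in each cortical library at P7 (3 libraries), P10 (4) and P42 (4), with the mean and SD. The interferon-induced genes were higher in every P42 library than in every P10 library and spread widely at P42, P2ry12 and Tmem119 rose mainly from P7 to P10, and Cst3 and Gas6 changed from P10 to P42 in opposite directions.

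Interferon-induced genes encode sensors and effectors of antiviral defence, and more of them rose than fell. Of 37 tested, 11 were called higher (29.7%) and 1 lower, and the median log2 fold change was 1.62, or 1.23 with genes at the limit of detection set to their bounds. The called genes were Ifit3, Ifi204, Isg15, Usp18, Rtp4, Xaf1, Ifih1, Oas1a, Ifitm3, Ifi35 and Trim30a, and leaving out 1 library gave 10 to 12 calls. Ifitm2, a membrane protein gene of the same family as Ifitm3, fell from 2.22 to 0.293 CPM. As 40.9% of its exon bases are shared with another gene on the same strand, its count is uncertain.

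Ifit3 encodes a protein with tetratricopeptide repeats that is among the most inducible of these genes (chr19:34583531-34588731, plus strand). It lay at 3.05, 2.57, 2.41 and 3.58 CPM at P10 and at 31.7, 23.2, 16.7 and 81.5 CPM at P42 (log2 3.72 ± 0.64, adjusted p = 7.98e-05). Isg15, the ubiquitin-like modifier, went from 3.37, 3.34, 1.84 and 1.93 CPM to 14.6, 16.2, 5.98 and 37.9 CPM, and Usp18, the protease that removes it, from 6.18, 5.66, 4.30 and 3.00 CPM to 26.3, 33.6, 16.5 and 55.1 CPM. For these 3 genes P42 replicate 4 was the highest and P42 replicate 3 the lowest of their group. Rtp4, a chaperone gene, was more even, at 28.0, 24.9, 19.9 and 23.4 CPM and then at 129.6, 108, 62.8 and 127 CPM.

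The summed level of the 37 genes was 688 to 715 CPM at P10 and 1407, 1361, 1023 and 1760 CPM in the 4 P42 libraries, so all 4 stood above P10 and P42 replicate 3, a male, was lowest. Without P42 replicate 4 the log2 fold changes of Ifit3, Isg15 and Usp18 were 3.05, 2.24 and 2.42. Oas1a was not called without P10 replicate 2, P10 replicate 3 or P42 replicate 1 (adjusted p = 0.012, 0.017 and 0.022). Of the cytosolic RNA sensor genes, Ifih1 rose from 7.74 to 30.0 CPM, and Ddx58 lay at 29.7 and 61.3 CPM without a call (log2 1.04 ± 0.30, adjusted p = 0.0168).

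Antigen presentation genes changed in part. For MHC class I, 3 of 20 genes were called higher and 0 lower, with a median of 0.58. H2-K1 rose from 245, 227, 244 and 274 CPM to 594, 569.9, 458 and 474 CPM (log2 1.08 ± 0.10, adjusted p = 4.74e-09), and H2-T23 from 70.8 to 238 CPM. The immunoproteasome gene Psmb9 rose 2.05-fold and was not called without P10 replicate 3 or P42 replicate 2, at a log2 fold change of 0.98 and 0.99. H2-D1 and B2m, which encode another heavy chain and the light chain of class I, were not called at 521 and 745 CPM and at 3037 and 2591 CPM. MHC class I genes are close relatives, and reads that map to several of them were discarded by the authors, so their counts are uncertain.

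For MHC class II, 2 of 15 genes were called higher and 0 lower. H2-Ob, which modulates peptide loading, rose from 34.5 to 75.7 CPM. H2-Eb1 lay at 0, 0, 0.0239 and 0 CPM at P10 and at 2.28, 2.85, 0.0583 and 3.30 CPM at P42, and P42 replicate 3 was again the low library. Its call was lost without any of the 4 P10 libraries or P42 replicate 4 (highest adjusted p = 0.024). H2-Ab1 and Cd74 overlapped or were not called, at 18.6 and 22.7 CPM and at 14.3 and 26.5 CPM.

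Transcription factor genes of the myeloid lineage were more often called higher than lower: 9 of 57 against 1, with a median of 0.52. Of all genes 1.09% were called higher and 2.77% lower. Cebpa, a factor of myeloid differentiation, rose from 31.4 to 99.8 CPM without overlap between the ages. Mitf rose from 8.96 to 25.9 CPM with overlap, as P42 replicate 1 lay at 10.4 CPM and P10 replicate 2 at 10.7 CPM. Spi1, which encodes PU.1, and Irf8 were below the fold limit at log2 0.39 ± 0.10 and 0.90 ± 0.09.

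The interferon-linked factor genes Irf5 and Irf9 stood at the fold limit, at log2 1.01 ± 0.09 and 1.03 ± 0.16. Irf5 lost its call without P10 replicate 2 or 3 or P42 replicate 2 or 3 (log2 0.99 to 1), and Irf9 without P10 replicate 2 or P42 replicate 1 (0.96 and 0.98). Among stress-inducible genes Atf3, Jund and Egr1 rose. A gene on the other strand overlaps 52.6% of the exon bases of Jund. Reads that fall on both genes were discarded by the authors, so the level of Jund is uncertain. Atf3 lay at 4.94, 7.12, 5.23 and 6.43 CPM and then at 34.8, 32.5, 38.6 and 32.9 CPM (log2 2.55 ± 0.27, adjusted p = 2.58e-08). The call of Egr1 was lost without any of 6 libraries, the 4 P10 libraries and P42 replicates 3 and 4, with an adjusted p of 0.084 at the highest. These 3 genes are among 26 that tissue dissociation induces, 3 of which were called higher and 1 lower, and whose sum was 886 to 929 CPM at P10 and 1148 to 1545 CPM at P42. The part of dissociation in these values was not tested.

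Klf2, a zinc finger factor gene that restrains macrophage activation (chr8:72319033-72321656, plus strand), was the factor gene that fell. It lay at 18.2, 23.4, 22.6 and 21.3 CPM at P10 and at 1.93, 1.45, 2.30 and 2.55 CPM at P42 (log2 -3.37 ± 0.28, adjusted p = 2.15e-10), without overlap between the ages. It is the gene of the dissociation list that fell.

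Chemokine ligands were called higher for 6 of 16 genes and lower for 0, with a median of 0.38. Ccl4, an attractant of macrophages and T cells (chr11:83662584-83664683, plus strand), rose from 5.4, 6.53, 6.11 and 7.28 CPM to 42.4, 50.6, 121 and 93.2 CPM (log2 3.60 ± 0.42, adjusted p = 1.78e-07). Its neighbour Ccl3 rose from 9.95, 13.1, 9.62 and 12.1 CPM to 21.1, 25.2, 51.4 and 48.0 CPM, and P42 replicates 3 and 4 were the high libraries for both genes. The Ccl3 call was lost without P10 replicate 1, 3 or 4 or P42 replicate 3 or 4 (adjusted p up to 0.020). Ccl6 rose 2.18-fold and Ccl9 2.27-fold, Cxcl16, a membrane-bound ligand and scavenger receptor, rose from 27.5 to 91.7 CPM, and Ccl24 from 10.6 to 25.9 CPM. The monocyte attractant genes Ccl2 and Ccl12 overlapped between the ages.

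Of 14 chemoattractant receptor genes, 3 were called higher and 2 lower, against 1.09% and 2.77% of all genes. The receptor of complement C5a, C5ar1, rose from 144 to 415 CPM, and Cmklr1, the chemerin receptor gene, from 31.5 to 66.1 CPM. Ccrl2 rose 3.11-fold and was not called without P10 replicate 1 or 2 or P42 replicate 4 (adjusted p up to 0.024). Cxcr2 was read at 13.8, 13.6, 10.5 and 4.79 CPM at P10 and at 0 CPM in every P42 library, at least 116-fold lower, and Ccr1 fell from 272 to 63.4 CPM. Cxcr2 is also expressed by neutrophils. The 4 neutrophil markers tested, of 10 listed, summed to 0.205 CPM or less in the P10 libraries, and the source of the Cxcr2 reads was not tested.

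Of 19 cytokine genes, 2 were called higher and 0 lower, against 1.09% and 2.77% of all genes. Tnfsf12 (TWEAK) rose from 1.91 to 7.64 CPM and Tnfsf13b (BAFF) from 2.00 to 12.7 CPM. The Tnfsf12 gene shares 48.3% of its exon bases with a readthrough gene on its strand, and the Tnfsf13b call was lost without P10 replicate 2 or 3 (adjusted p = 0.014 and 0.012). Il1b was read at 0.606 and 8.33 CPM without a call (adjusted p = 0.0179), and Tnf overlapped. None of 22 cytokine receptor genes was called by edgeR, 1 was called by limma-voom and 1 by DESeq2. An unadjusted p under 0.05 was found for 14, against 5196 of all 20917 genes. An adjusted p of 0.01 or less with a smaller fold was found for 9.

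Of 26 growth factor genes and binding proteins, 2 were called higher and 4 lower. Of the platelet-derived growth factor genes listed, Pdgfb rose from 47.2, 50.8, 55.1 and 46.3 CPM to 105, 102, 105 and 95.1 CPM. Pdgfa rose from 5.60 to 18.1 CPM, and Pdgfc was not called. Pdgfa shares 26.1% of its exon bases with a gene on the other strand. Igfbp4, which encodes an IGF-binding protein (chr11:99041244-99054392, plus strand), fell from 494, 545, 572 and 539.5 CPM to 61.3, 58.8, 46.3 and 59.8 CPM (log2 -3.25 ± 0.16, adjusted p = 3.30e-15). Igf1 fell from 11.9, 5.98, 7.78 and 7.47 CPM to 0.140, 3.43, 0.467 and 0.355 CPM. P42 replicate 2 stood close to the P10 range, and without it the log2 fold change of Igf1 was -4.64 instead of -2.85. In a fit of the 8 cortical libraries alone its adjusted p was 0.034. Nrp1, the neuropilin that binds VEGF and semaphorins, fell 2.03-fold, at the fold limit, and lost its call without any of 5 libraries (P10 replicates 1, 3 and 4 and P42 replicates 1 and 2, log2 -0.93 to -1).

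The 12 genes that the study treats as known priming genes held 5 calls lower and 1 higher. Mrc1, the mannose receptor gene CD206 (chr2:14229392-14332057, plus strand), fell from 481, 473, 447 and 494 CPM to 29.6, 22.5, 17.6 and 21.8 CPM (log2 -4.37 ± 0.53, adjusted p = 4.09e-07). Mrc1 is also a border macrophage marker, and the 10 markers of that list, of which it makes up most, summed to 468 to 510.4 CPM at P10 and 21.2 to 32.8 CPM at P42. All 10 had a fold change below 0, 1 was called by edgeR, 1 by limma-voom and 4 by DESeq2, and the part of border macrophages in these values was not tested. Axl, a TAM receptor gene, fell from 43.4, 29.2, 28.9 and 36.5 CPM to 5.51, 10.1, 10.8 and 18.3 CPM, and Spp1, which encodes osteopontin, from 71.6, 79.3, 92.8 and 64.0 CPM to 5.58, 4.09, 6.71 and 2.84 CPM. limma-voom did not call Spp1 (log2 -4.06, adjusted p = 0.82).

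Gas7 fell 13.5-fold to 0.397 CPM. Clec7a, the beta-glucan receptor gene also known as Dectin-1, rose from 6.64, 7.12, 6.57 and 7.91 CPM to 16.1, 33.9, 27.1 and 18.8 CPM (log2 1.77 ± 0.25, adjusted p = 5.59e-06), without overlap. Its limma-voom adjusted p was 0.014. The other 6 priming genes, Anxa5, Gpnmb, Itgax, Lgals3, Cd36 and F13a1, were not called, at log2 0.34, 1.02, 1.37, 2.40, -2.16 and -4.64, and except for Anxa5 (27.0 and 34.1 CPM) they lay at 5.26 CPM or less on average at both ages. Of the 5 phagocytosis genes that the study names, Scarb1, a lipoprotein receptor, was called lower, from 109, 86.2, 106 and 91.6 CPM to 29.5, 38.0, 22.9 and 42.6 CPM, and Gsn, Cd36, Abca1 and Grk6 were not called (log2 -0.01, -2.16, 0.33 and -0.60).

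Among 40 receptors for phagocytosis and apoptotic cells, 1 was called higher and 5 lower, with a median of -0.11. Of all genes 1.09% were called higher and 2.77% lower. The lipid scavenger and clearance receptor gene Lrp1 fell from 704 to 328 CPM. Of 35 lysosomal genes, Cst3 was called higher and Gusb, a glucuronidase gene, lower (1102 to 528 CPM), and the summed level of the list was 114600 to 119500 CPM at P10 and 140700 to 150800 CPM at P42. Cst3 alone went from a mean of 17930 to 45840 CPM, and 22 of the 35 had a fold change below 0, with a median of -0.11.

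**Figure D4:**
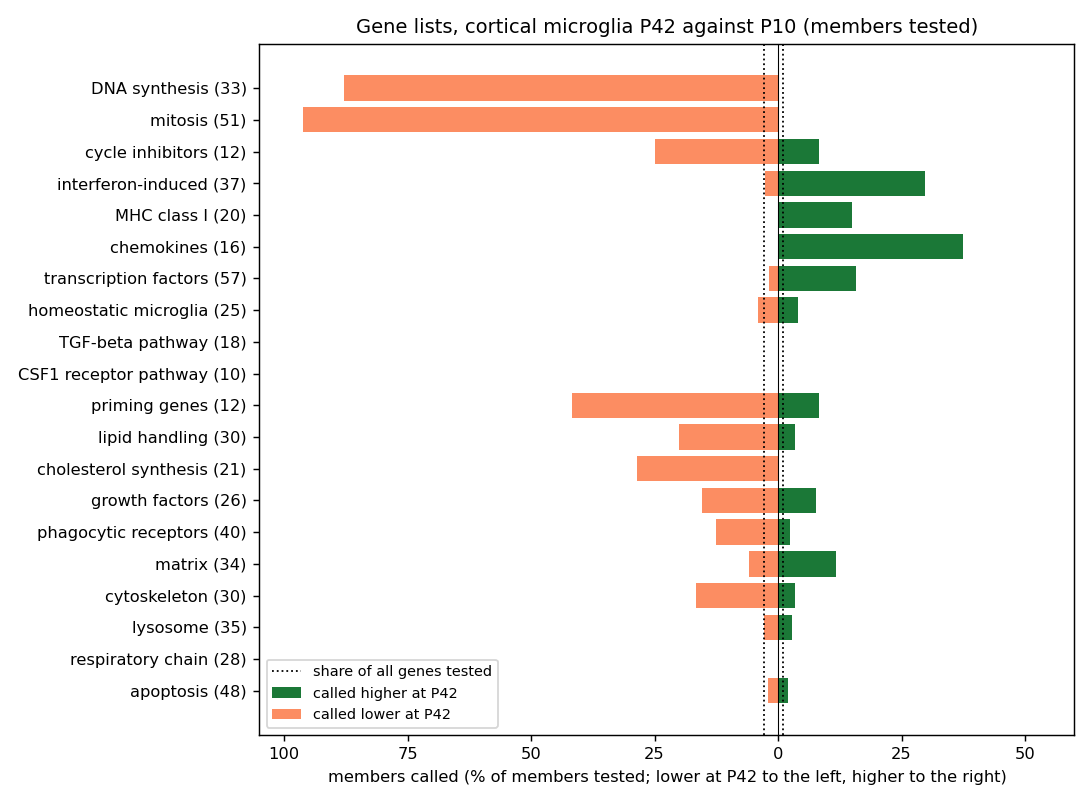
Share of each list's tested members (x axis, %) called lower (left) or higher (right) at P42; the number tested stands beside the list name and dotted lines mark the 2.77% and 1.09% of all genes tested. The mitosis (49 of 51) and DNA synthesis (29 of 33) lists reached farthest to the left, and the chemokine (6 of 16) and interferon (11 of 37) lists farthest to the right.

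Lipid handling genes fell more often than they rose, with 6 of 30 called lower and 1 higher. Apoe, which encodes the main lipid carrier of the brain (chr7:19696109-19699188, minus strand), fell from 1934, 1832, 1910 and 1842 CPM to 387, 218, 176 and 254 CPM (log2 -2.86 ± 0.22, adjusted p = 4.42e-11). The libraries did not overlap, but limma-voom did not call it (log2 -2.96, adjusted p = 0.86). Lpl, lipoprotein lipase, fell from 159, 191, 168 and 136 CPM to 27.4, 27.6, 20.2 and 36.3 CPM. Fabp5 and Apoc1 fell from low levels of 2.95 and 2.42 CPM. In the other direction Abcg1, which exports cholesterol, rose from 84.7, 79.0, 84.3 and 77.8 CPM to 185, 201, 226 and 212 CPM (log2 1.34 ± 0.11, adjusted p = 4.79e-10).

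Genes of cholesterol synthesis were called lower for 6 of 21 and higher for 0, with a median of -0.76. Sqle, an oxygenase of the pathway, fell from 44.9, 52.2, 45.1 and 32.0 CPM to 0.807, 2.59, 3.32 and 6.72 CPM (log2 -3.69 ± 0.57, adjusted p = 2.02e-05). Cyp51, a demethylase of the pathway, fell from 113 to 19.0 CPM and Srebf2, the factor that drives the pathway, from 69.6 to 21.3 CPM. The sum of the list was 854 to 894 CPM at P10 and 451 to 513 CPM at P42.

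Of 23 glycolysis genes, 2 were called higher and 0 lower, against 1.09% and 2.77% of all genes. Aldoa rose from 173, 201, 184.5 and 180.4 CPM to 398, 466, 408 and 355 CPM and Pfkl from 59.5 to 157 CPM. None of 28 nuclear genes of the respiratory chain and none of 20 ribosome-making genes were called by edgeR, limma-voom or DESeq2. Of the 28, 15 had an unadjusted p under 0.05 and 22 a fold change below 0. Of the 20, 5 had an unadjusted p under 0.05, and of all 20917 genes 5196 had. An adjusted p of 0.01 or less with a smaller fold was found for 7 of the 28 and 3 of the 20. In the antioxidant list Gpx3, a secreted peroxidase gene (chr11:54902453-54910377, plus strand), fell from 89.1, 106.5, 99.8 and 112 CPM to 0.140, 0.0792, 0.0583 and 0.0646 CPM (log2 -10.19 ± 0.78, adjusted p = 5.13e-11). Gpx1, its cytosolic relative, fell 2.16-fold to 383 CPM, and Ncf4, a subunit of the phagocyte oxidase, rose from 37.6 to 89.1 CPM.

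Of 48 apoptosis genes, 1 was called higher and 1 lower, which is near the 1.09% and 2.77% of all genes. Their median was 0.27, and 32 had a fold change above 0. An unadjusted p under 0.05 was found for 21, and 6 without a call had an adjusted p of 0.01 or less with a smaller fold. The sum of the list was 2128 to 2221 CPM at P10 and 2269 to 2507 CPM at P42. Bcl2a1a, a survival gene with close paralogs that make its count uncertain, rose from 3.29 to 10.9 CPM, and Apaf1, the scaffold of the apoptosome, fell from 24.0 to 10.0 CPM but lost its call without any of 6 libraries (P10 replicates 1 and 4 and all 4 P42 replicates, adjusted p up to 0.049). Bax, an effector at mitochondria, was lower at P42 by 0.56 on the log2 scale, inside the fold limit. None of 15 genes of necroptosis, pyroptosis and ferroptosis was called by edgeR. Of these 9 had an unadjusted p under 0.05, against 5196 of all 20917 genes, and 2 an adjusted p of 0.01 or less.

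Of 32 adhesion genes, 1 was called higher and 1 lower, and of 34 matrix genes, 4 higher and 2 lower. Of all genes 1.09% were called higher and 2.77% lower. Jam3, a junctional adhesion molecule gene (chr9:27097385-27155421, minus strand), rose from 0.459, 3.78, 2.72 and 2.80 CPM to 55.0, 69.7, 49.2 and 58.2 CPM (log2 4.57 ± 0.71, adjusted p = 1.89e-05). Tgm2, a transglutaminase gene, rose from 2.46, 6.00, 7.19 and 8.44 CPM to 152, 154, 113 and 93.8 CPM, and it shares 21.8% of its exon bases with genes on the other strand. Mmp14 rose from 14.9 to 52.9 CPM. Integrin beta 1, Itgb1, fell from 1466 to 628 CPM, and the sheddases Adam9 and Adam10 from 227 to 58.9 CPM and from 951 to 444 CPM. Nid2, Lamb2 and Sulf2, which act in basement membranes and heparan sulfate and were chosen after their values were seen, fell 6.11-, 6.29- and 5.96-fold.

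In the cytoskeleton list 1 of 30 genes was called higher and 5 lower. Stmn1, a microtubule destabiliser of dividing cells, fell from 31.9 to 2.07 CPM, Tuba1c from 33.2 to 5.62 CPM, Tubb5 from 521 to 213 CPM and the actin-severing Cfl1 from 913 to 396 CPM. The bundling gene Fscn1 rose from 165 to 490.4 CPM. The RNA-binding protein gene Igf2bp3, which is typical of fetal tissues, fell from 44.9, 48.4, 43.2 and 38.8 CPM to 1.37, 2.51, 1.63 and 2.33 CPM.

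Slc1a3, a glutamate transporter that astrocytes also express, rose from 84.0 to 248 CPM and made up most of the astrocyte marker sum (99.0 to 108 CPM at P10 and 219 to 290 CPM at P42), although 8 of the 10 markers had a fold change below 0. Of 13 transporters of amino acids and nucleosides 2 were called lower, Slc38a1 and Slc38a2, at log2 -1.11 and -1.12; Slc38a2 lost its call without P42 replicate 1 or 2 (log2 -0.99). Among channels Kcnj2, an inward rectifier, rose from 10.4 to 38.0 CPM, and the ATP-gated channel gene P2rx1 fell from 99.5 to 28.5 CPM. The lectin gene Siglecf fell from 137 to 57.8 CPM.

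The 15 largest rises outside the lists were Pyhin1, Pde2a, Upk1b, Csmd3, Serpinb9, Sorl1, Cdc42ep3, Slamf8, Srgn, Phf11b, Ly6a, Phf11d, Padi2, Mlph and Tspan13. Upk1b, a tetraspanin gene (chr16:38773184-38800203, minus strand), rose from 39.9, 18.5, 19.0 and 30.6 CPM to 264, 269, 193 and 235 CPM (log2 3.15 ± 0.35, adjusted p = 5.48e-08). Tspan13, another tetraspanin gene, rose from 76.2, 81.8, 72.8 and 65.7 CPM to 418, 414, 365 and 424 CPM (log2 2.45 ± 0.10, adjusted p = 2.25e-16). Srgn, which encodes the granule proteoglycan serglycin, rose from 41.3, 42.8, 42.3 and 37.7 CPM to 228, 232, 258 and 279 CPM, and Padi2, an enzyme that citrullinates proteins, from 25.8 to 146 CPM. The calls of Pyhin1, Sorl1 and Slamf8 were lost without 6, 3 and 2 of the 8 libraries in turn. These were all P10 libraries and P42 replicates 2 and 4 for Pyhin1 (log2 3.59 to 4.17), P10 replicates 2 and 4 and P42 replicate 3 for Sorl1 (2.57 to 2.73), and P10 replicates 3 and 4 for Slamf8 (2.73 and 2.55).

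The cortical change was then compared with that of the other regions, to ask where it was particular to the Cx. Of the cortical calls, 115 of 228 higher and 370 of 579 lower were also called in the same direction in the CC, and 102 and 304 in the Cb. The shares of all genes called in the CC and Cb are not reported here. These counts alone therefore do not measure how particular the cortical change was. The test of the difference itself called 46 of 20917 genes against the CC (0.22%), 23 in each direction, and 54 against the Cb (0.258%), 25 of them with a higher change in the Cx. Both tests use the same 8 cortical libraries. Within an age, replicate numbers and sexes match across the regions, and the labels do not say whether those libraries came from the same mice. The tests treat all libraries as independent, and pairing across regions was not tested.

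Klf2 was called lower in the Cx and in neither other region. Its mean went from 21.3 to 2.06 CPM in the Cx, from 15.9 to 24.7 CPM in the CC and from 33.6 to 45.0 CPM in the Cb, and the Cx change was lower by 4.01 ± 0.37 and by 3.79 ± 0.37 on the log2 scale (adjusted p = 5.79e-08 against the CC and 1.06e-07 against the Cb). Emp3, an epithelial membrane protein gene, followed the same course: 64.7, 74.8, 64.1 and 67.3 CPM became 10.3, 17.3, 12.7 and 13.3 CPM in the Cx, while the CC went from 45.1 to 46.8 CPM and the Cb from 65.9 to 86.3 CPM (adjusted p = 4.05e-08 and 3.58e-09). Ifi30, a lysosomal thiol reductase gene of antigen processing, fell from 212.5 to 97.9 CPM in the Cx and went from 101 to 166 CPM in the CC and from 162 to 217 CPM in the Cb (adjusted p = 4.05e-08 and 6.03e-07). Fxyd5 was lower by 2.31 and 2.53 in the same way, and its own fall in the Cx (11.3 to 5.28 CPM) lost its call without any of 6 libraries (P10 replicates 1, 2 and 4 and P42 replicates 2, 3 and 4, adjusted p up to 0.029). Endod1 lay at 126 and 139 CPM in the Cx and went from 38.9 to 164 CPM in the CC (difference -1.94, adjusted p = 0.00291).

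**Figure D5:**
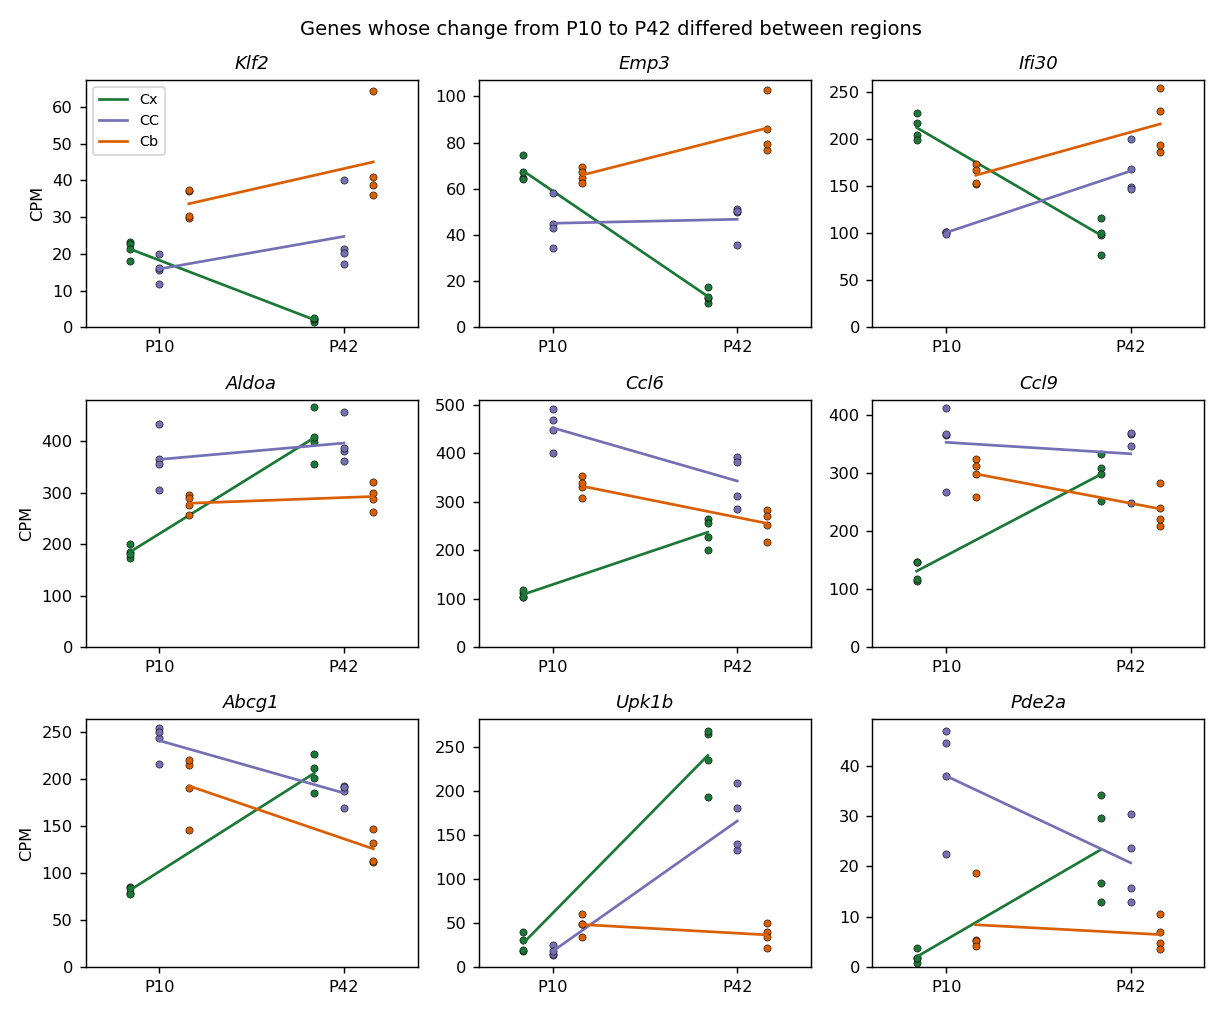
CPM (y axis) of 9 genes at P10 and P42 in each library of the Cx, CC and Cb (4 per region and age); points are libraries and lines join the means. Klf2, Emp3 and Ifi30 fell in the Cx and not in the CC or Cb, whereas Ccl6, Ccl9 and Abcg1 rose in the Cx from a P10 level below that of every CC and Cb library.

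Another set rose in the Cx from a lower starting level. Ccl6 lay at 103, 112, 118 and 103 CPM in the Cx at P10 against 401 to 492 CPM in the CC and 307 to 354 CPM in the Cb, and at P42 at 227, 264, 201 and 257 CPM against 286 to 392 and 217 to 283 CPM. The Cx change was higher by 1.53 ± 0.14 and 1.5 ± 0.14 on the log2 scale (adjusted p = 6.38e-08 and 9.01e-08). Ccl9 (115, 147, 146 and 117 CPM, then 332, 309, 252 and 299 CPM) was higher by 1.27 ± 0.18 and 1.51 ± 0.18 (adjusted p = 1.23e-04 and 7.72e-06). Abcg1 was higher by 1.72 ± 0.16 and 1.95 ± 0.16 (adjusted p = 6.38e-08 and 8.04e-09), starting at 81.5 CPM in the Cx against 241 and 192 CPM and ending at 206 CPM against 185 and 126 CPM.

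Abca1, the other cholesterol exporter gene, was at 303, 225, 182 and 205 CPM and then 261, 262, 315 and 309 CPM in the Cx, where it was not called, and fell in the CC from 492 to 169 CPM (difference 1.87 ± 0.25, adjusted p = 5.68e-05). Its difference from the Cb of 1.24 lost its call without any of 7 libraries, all but P10 replicate 1 (adjusted p up to 0.025). Aldoa was higher by 1.02 and 1.07 in the Cx. The former call was lost without P42 replicate 2 (0.95). Lag3 and Fam26f (an ion channel family gene) also had higher changes in the Cx than in both regions, at 1.46 and 2.69 and at 2.44 and 1.62, and the Fam26f difference from the Cb was lost without any of 7 libraries, all but P42 replicate 1. The mean levels of the 3 regions stood closer at P42 than at P10 for Ccl6 and Ccl9.

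Pde2a, a phosphodiesterase gene, rose from 0.836, 1.68, 1.79 and 3.70 CPM to 29.7, 34.1, 16.6 and 13.0 CPM in the Cx. It went from 38.0 to 20.7 CPM in the CC and from 8.38 to 6.43 CPM in the Cb (differences 4.42 ± 0.80 and 3.93 ± 0.80, adjusted p = 0.00277 and 0.00802). The difference from the Cb lost its call without P10 replicate 1, 2 or 3 or P42 replicate 1 or 2 (adjusted p up to 0.022). Atf3 started at 5.93 CPM in the Cx against 37.9 CPM in the CC and ended at 34.7 against 43.1 CPM (difference 2.36 ± 0.36, adjusted p = 3.64e-04). Cdc25b and Hpse had higher changes in the Cx than in the CC, where they went from 14.3 to 0.00840 CPM and from 30.6 to 0.242 CPM. The Hpse difference was lost without any of 6 libraries, all but P42 replicates 3 and 4 (adjusted p up to 0.063), and the cortical fall of Cdc25b itself without the 4 P10 libraries in turn or P42 replicate 4 (adjusted p up to 0.033).

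Against the Cb, a difference was called for the division genes Dlgap5, Dna2, Casc5 and Mki67. Dlgap5, Casc5 and Mki67 were at the limit of detection in the Cx at P42, so no size of the difference is given. They ended at means of 0.00877, 0.0249 and 0.0293 CPM in the Cx and 0.854, 0.583 and 0.756 CPM in the Cb (adjusted p = 0.00105 for Dlgap5). Dna2 went from 15.5 to 0.156 CPM in the Cx and from 13.1 to 7.46 CPM in the Cb. The calls of Dna2, Casc5 and Mki67 were lost in 7, 6 and 8 of the 8 fits without a library: for Dna2 all but that without P42 replicate 2, for Casc5 all but those without P10 replicate 1 or P42 replicate 4 (adjusted p up to 0.026, 0.024 and 0.029). Upk1b rose in the Cx and CC (27.0 to 240.2 CPM and 17.8 to 166 CPM), while the Cb went from 48.2 to 36.4 CPM (difference 3.56 ± 0.46, adjusted p = 3.08e-05). Pecam1 and Lag3 were not called in the Cx (44.5 and 48.2 CPM, and 29.3 and 55.9 CPM) and fell in the Cb, from 63.1 to 9.10 CPM and from 71.4 to 21.1 CPM. Nbl1 was higher by 3.00 and lost that call without P10 replicate 2, 3 or 4 or P42 replicate 1 or 2 (adjusted p up to 0.018).

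Apoe and Mrc1 were called lower in all 3 regions without a called difference. Apoe fell in the Cx from 1880 to 258 CPM, in the CC from 16770 to 1050 CPM and in the Cb from 10350 to 958 CPM, and the Cx change was the smallest of the 3 (difference from the CC 1.13 ± 0.29, adjusted p = 0.042). Mrc1 fell in the CC from 189 to 14.0 CPM and in the Cb from 120.3 to 25.3 CPM (adjusted p of the differences 0.804 and 0.156). For Ifit3 the Cx rise was larger than those in the CC (6.82 to 8.43 CPM) and Cb (6.18 to 18.8 CPM), but neither difference was called (adjusted p = 0.0342 and 0.285). Igfbp4 ended at 56.5, 55.5 and 58.3 CPM in the Cx, CC and Cb after 538, 411 and 264 CPM, and its difference from the Cb (-1.07, adjusted p = 0.00526) lost its call without P42 replicate 3 or any P10 library (adjusted p up to 0.014).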

How the data were processed

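RNA was sequenced from sorted microglia in 33 libraries, made per the labels with a SMARTer Ultra Low Input kit and Nextera XT, which keep no strand. The authors deposited 1 table of raw counts per gene, made with STAR 2.5.2b on GRCm38 and featureCounts 1.6.2 and with reads of several positions or genes discarded. From these counts, the 17212 genes without a read and the 10458 genes with the lowest summed counts were removed, as the study did, leaving 20917. All 33 libraries were fitted in 9 groups of region and age with the quasi-likelihood test of edgeR 4.0.16 (TMM factors, Benjamini-Hochberg adjustment, R 4.3.3), and the Cx, its differences from the CC and Cb, and the sexes were taken as contrasts. The study itself used limma 3.38. limma-voom (limma 3.58.1), DESeq2 1.42.0, other scaling, filters, samples and covariates were tried as alternatives. The members and gene lists were chosen with earlier results of these data known. Named genes were the called members of the lists and, outside them, the 15 largest rises and falls by the ratio of mean CPM plus 0.5 with at least 10 CPM in the higher group, those with the 5 largest called differences each way between the Cx and the CC or Cb, so that their passing that test is fixed by the choice, together with reference genes of the lists, and some genes are not reported here. The scripts were tested on simulated data. Promoters were read from a RefSeq table on GRCm38.p6, in which 27025 symbols have a promoter. CPM of low genes carry counting error, as 1 read is worth up to 0.0341 CPM.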

Additional observations from a re-analysis of the deposited data

Results flagged for a closer look

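In 104 groups of 4 libraries (52 genes at 2 ages), 5 libraries stood apart from the other 3 by a gap above Dixon's 95% critical value, and chance flags about 1 group in 20. Ccnb2 was at 0.292 CPM in P42 replicate 3 against 0.0264 to 0.0351 CPM in the others. Cst3 was at 42880 CPM in P42 replicate 3 against 46560 to 47010 CPM, and Igfbp4 in the same library at 46.3 CPM against 58.8 to 61.3 CPM. Igf1 was at 3.43 CPM in P42 replicate 2 against 0.140 to 0.467 CPM. H2-Eb1 was at 0.0239 CPM in P10 replicate 3, a single read, and at 0 in the others.

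Of the genes named, 16 had a change from P10 to P42 in the Cx that differed from that in the CC by the test of the difference, and 10 of these were named because they passed it. On the log2 scale the Cx change was lower for Klf2 (-4.01), Emp3 (-2.39), Fxyd5 (-2.31), Endod1 (-1.94) and Ifi30 (-1.84). It was higher for Aldoa (1.02), Ccl9 (1.27), Lag3 (1.46), Ccl6 (1.53), Abcg1 (1.72), Abca1 (1.87), Atf3 (2.36), Fam26f (2.44), Pde2a (4.42), Hpse (6.71) and Cdc25b (7.59).

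Against the Cb, the Cx change was lower for Dlgap5 (-6.99), Dna2 (-5.74), Casc5 (-5.54), Mki67 (-5.50), Klf2 (-3.79), Emp3 (-2.72), Fxyd5 (-2.53), Cdkn1a (-2.23), Lpl (-1.68), Ifi30 (-1.54) and Igfbp4 (-1.07). It was higher for Aldoa (1.07), Tspan13 (1.09), Slc1a3 (1.17), Fscn1 (1.22), Abca1 (1.24), Ccl6 (1.5), Ccl9 (1.51), Fam26f (1.62), Abcg1 (1.95), Lag3 (2.69), Pecam1 (2.91), Nbl1 (3.00), Upk1b (3.56) and Pde2a (3.93). Dlgap5, Dna2, Casc5, Mki67, Upk1b, Pde2a, Nbl1, Pecam1 and Lag3 were named because they passed this test. The values of Dlgap5, Casc5 and Mki67 are fitted against Cx libraries at the limit of detection at P42, and that of Cdc25b above against CC libraries with a mean of 0.00840 CPM, so they carry no exact size. The Cdkn1a difference lost its call without any library but P42 replicate 4 (adjusted p up to 0.018), and that of Fscn1 without P10 replicates 2, 3 and 4 or P42 replicates 2 and 3 in turn (adjusted p up to 0.015).

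Reads on the spike-in sequences, which no comparison uses, numbered 7 to 17 per library.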

How the results depend on the processing

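The count of 807 calls stayed within 1.5 times under every alternative run, from 698 without P10 replicate 2 to 1196 at an adjusted p of 0.05, and of the 143 called genes named, 132 to 143 were still called. limma-voom called 1062 genes and DESeq2 1145. The replicate numbers were shared by the labels of both ages, but same-numbered libraries did not deviate together (r = 0.024 to 0.075 over 10086 genes, 0 pairs above 0.1). With the replicate number as a block 753 genes were called, and Mitf, Igf1, Ifitm2 and Fabp5 were among the 9 named calls lost. Leaving out each library in turn, 31 to 46 genes differed between the Cx and CC, 33 to 50 between the Cx and Cb (34 without P10 replicate 2 or 4, 33 without P10 replicate 3), and 0 to 1 between the sexes (1 without P10 replicate 2). Genes without a call changed sign. Gsn was at 0 with edgeR's own expression filter, at 0.01 in the cortical libraries alone and at 0 to 0.15 without P10 replicate 1, 2 or 4 or P42 replicate 3 or 4 (0, 0.04, 0.03, 0.15 and 0.10), with a range of -0.29 to 0.15 over the fits without a library. Among the fits without a library, Gpnmb was at -1.05 without P42 replicate 1 (highest 1.93), Hpse at 0.04, 0.18 and 0.19 without P10 replicate 4 and P42 replicates 3 and 4 (lowest -1.99), Pecam1 at -0.10 without P42 replicate 2 (highest 0.32) and Lyve1 at 1.46 without P10 replicate 3 (lowest -7.23). The causes were not tested. Depth limits genes near 1 read per library, where fitted folds depend on single reads.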
